A study of Mus musculus with 36 samples.

Results

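Pou5f1, Sox2, Nanog, Sall4 and Lin28a were followed as the core pluripotency factors of mouse embryonic stem cells. The 5 genes were taken by name, with the Ensembl identifiers of the count tables matched to symbols, and are 5 of the 49671 genes counted. All 5 passed the filter on low counts in each of the comparisons made, and all had counts in each of the 36 libraries.

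The libraries were made from polyA RNA of a mouse pluripotent stem cell line in which doxycycline (dox) switches on forced expression of Mesp1, the transcription factor that marks the earliest cardiovascular progenitors. Every group carries this inducible line, and no library with dox lacks the transgene, so an effect of the drug and an effect of Mesp1 cannot be told apart. The cells were differentiated in hanging drops in serum, and hours are counted from a point that the labels call d2-5. Genetically wild-type cells of batch 1 were sampled at 0 h, at 12 h with and without dox and at 24 h with and without dox, with 2 libraries a group. Batch 2 repeated 0 h with 2 libraries, 24 h with dox with 4 and 24 h without dox with 2. Batch 3 held 2 libraries of cells labelled Zic2 knockout and 2 of wild-type cells, all at 24 h with dox, and the number of knockout clones is not given in the sources used here. A further 2 libraries with dox and 2 without, all at 24 h, come from stem cells kept in 2i, medium whose inhibitors of MEK and GSK3 keep mouse stem cells naive; the protocol text gives hanging drops for these as well. On day 4, cells sorted as positive for both Flk1 (the protein of Kdr) and Pdgfra gave 5 libraries, called double positive here, cells negative for both gave 3, called double negative, and unsorted bulk cells gave 2. The labels of the day 4 libraries do not state whether dox was given to each of them, and the titles of the bulk libraries alone carry a tag, ND, that the labels do not explain. The labels do not say that replicates came from separate cultures, so p-values measure the spread between libraries, which may be technical.

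Pou5f1 (Oct4) and Sox2 are transcription factors that bind side by side at enhancers of stem cell genes, their own and that of Nanog included. Nanog is a homeodomain factor that stabilises self-renewal and is known to return in the posterior epiblast at gastrulation. Sall4 is a zinc finger factor that recruits the NuRD repressor complex, and Lin28a is an RNA-binding protein that blocks the maturation of let-7 microRNAs. Sall4 and Lin28a are known to remain on beyond the pluripotent state, in gastrulating and early organ-forming tissue.

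The gene totals of the libraries ran between 12126604 and 51940589 reads, so that 1 count was worth between 0.0193 and 0.0825 CPM, a gene's share of the gene total of its library in the usual CPM scaling. At 24 h the Mesp1 counts followed the dox labels within each batch. With dox, Mesp1 stood at 183 and 348 CPM in batch 1 and at 544, 209, 42.9 and 95.2 CPM in batch 2. Without dox, it stood at 41.5 and 45.3 CPM in batch 1 and at 0.808 and 1.5 CPM in batch 2. The 2 no dox libraries of batch 1 at 24 h therefore held Mesp1 reads well above those of batch 2 without dox. The batch 2 library with dox at 42.9 CPM stood between these 2 batch 1 libraries. Kdr was at 735 to 1260 CPM in the double positive sort and at 2.84 to 6.57 CPM in the double negative sort. Summed over 15 naive markers, the 2i libraries held 5214 and 5352 CPM with dox and 5020 to 5066 CPM without, and no library of any other group passed 594 CPM. Counted reads in no gene or in several, 7.76% to 13.9% per library, stay outside the gene totals.

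In mouse the 5 genes lie on 5 chromosomes of the GRCm38 build. Pou5f1 (ENSMUSG00000024406) is at chr17:35506018-35510772 on the plus strand, Sox2 (ENSMUSG00000074637) at chr3:34650405-34652461 on the plus strand, Nanog (ENSMUSG00000012396) at chr6:122707489-122714633 on the plus strand, Sall4 (ENSMUSG00000027547) at chr2:168748332-168767943 on the minus strand and Lin28a (ENSMUSG00000050966) at chr4:134003330-134018841 on the minus strand. Of the exon bases, 14.1% of Pou5f1, 9.5% of Sall4 and 5.9% of Lin28a are shared with a gene on the other strand (Gm19553, Gm14261 and Gm13061), and the strand setting of the counting is not given in the sources used here, so a part of these counts is uncertain. Pou5f1 and Nanog also have processed copies in the genome whose reads may be split between copies.

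Pou5f1 and Sox2 are known to bind DNA as a pair, and the promoters of the members were searched for the Sox element CATTGT, the POU element ATGCAAA and both in a row with 1 base between them, on both strands, and are shown with any match in capitals. RefSeq gave a window of 250 bases before to 50 bases after the start for 4 of the 5 members (build GRCm38.p6, shown 5′ to 3′ along the gene).
Nanog, chr6:122707315-122707614, plus strand: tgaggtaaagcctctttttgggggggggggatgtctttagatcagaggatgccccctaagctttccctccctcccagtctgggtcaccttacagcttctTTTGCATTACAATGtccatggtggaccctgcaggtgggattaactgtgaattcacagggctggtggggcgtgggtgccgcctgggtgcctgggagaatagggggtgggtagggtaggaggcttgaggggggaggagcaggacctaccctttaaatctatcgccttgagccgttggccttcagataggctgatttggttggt
Sox2, chr3:34649745-34650044, plus strand: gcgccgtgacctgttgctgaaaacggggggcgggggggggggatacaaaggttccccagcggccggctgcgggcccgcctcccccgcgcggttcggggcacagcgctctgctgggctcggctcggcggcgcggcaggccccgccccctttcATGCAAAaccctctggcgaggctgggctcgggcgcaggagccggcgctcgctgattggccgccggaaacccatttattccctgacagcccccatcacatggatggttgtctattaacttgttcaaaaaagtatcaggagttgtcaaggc
Pou5f1, chr17:35505782-35506081, plus strand: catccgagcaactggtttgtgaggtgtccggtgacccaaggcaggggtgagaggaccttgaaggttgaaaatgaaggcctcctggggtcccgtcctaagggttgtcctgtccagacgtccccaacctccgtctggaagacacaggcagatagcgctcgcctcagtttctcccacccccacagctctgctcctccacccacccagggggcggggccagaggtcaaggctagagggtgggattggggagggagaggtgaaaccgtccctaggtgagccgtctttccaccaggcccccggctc
Lin28a, chr4:134018767-134019066, minus strand: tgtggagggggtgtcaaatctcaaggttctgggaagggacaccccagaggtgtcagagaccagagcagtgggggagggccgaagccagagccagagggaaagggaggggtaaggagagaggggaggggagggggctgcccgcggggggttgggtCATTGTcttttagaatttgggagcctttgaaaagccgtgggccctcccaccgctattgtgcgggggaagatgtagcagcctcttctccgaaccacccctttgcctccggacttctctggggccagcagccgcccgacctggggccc

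The Nanog window held the 2 elements in a row on the minus strand, from base -151 counted from this start. Of 32851 promoter windows of this length, 2 held that arrangement (0.00609%), and both were windows of Nanog at neighbouring starts. The Sox2 window held a POU element at base -99, as did 4.63% of all windows, and the Lin28a window a Sox element at base -96, as did 12.6% of all windows. None of these letters stood in the Pou5f1 window shown, and a window at another RefSeq start of Pou5f1 held a Sox element at base -158. A match of letters is a description and not a measured binding site.

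Across the 15 groups, the members fell into 2 sets by their highest and lowest group alone. The sets did not hold within comparisons: with dox at 24 h Lin28a was called lower and Sall4 higher. Pou5f1 and Sox2 were highest in 2i without dox, at 1043 ± 47.1 and 297 ± 67.9 CPM (SD, n = 2), and Nanog was highest in 2i with dox, at a mean of 1260 CPM. All 3 were lowest in the day 4 double positive sort. The group means spanned 9.73-fold for Pou5f1, 173-fold for Nanog and 234-fold for Sox2. Sall4 and Lin28a were highest in the day 4 double negative sort, with means of 706 and 721 CPM, and lowest in 2i. Sall4 spanned only 3.02-fold between its highest and lowest group, while Lin28a spanned 18.1-fold, with 239 to 820 CPM in the libraries outside 2i. These groups come from several batches with no common control, so the order of levels is a description.

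**Figure D1:**
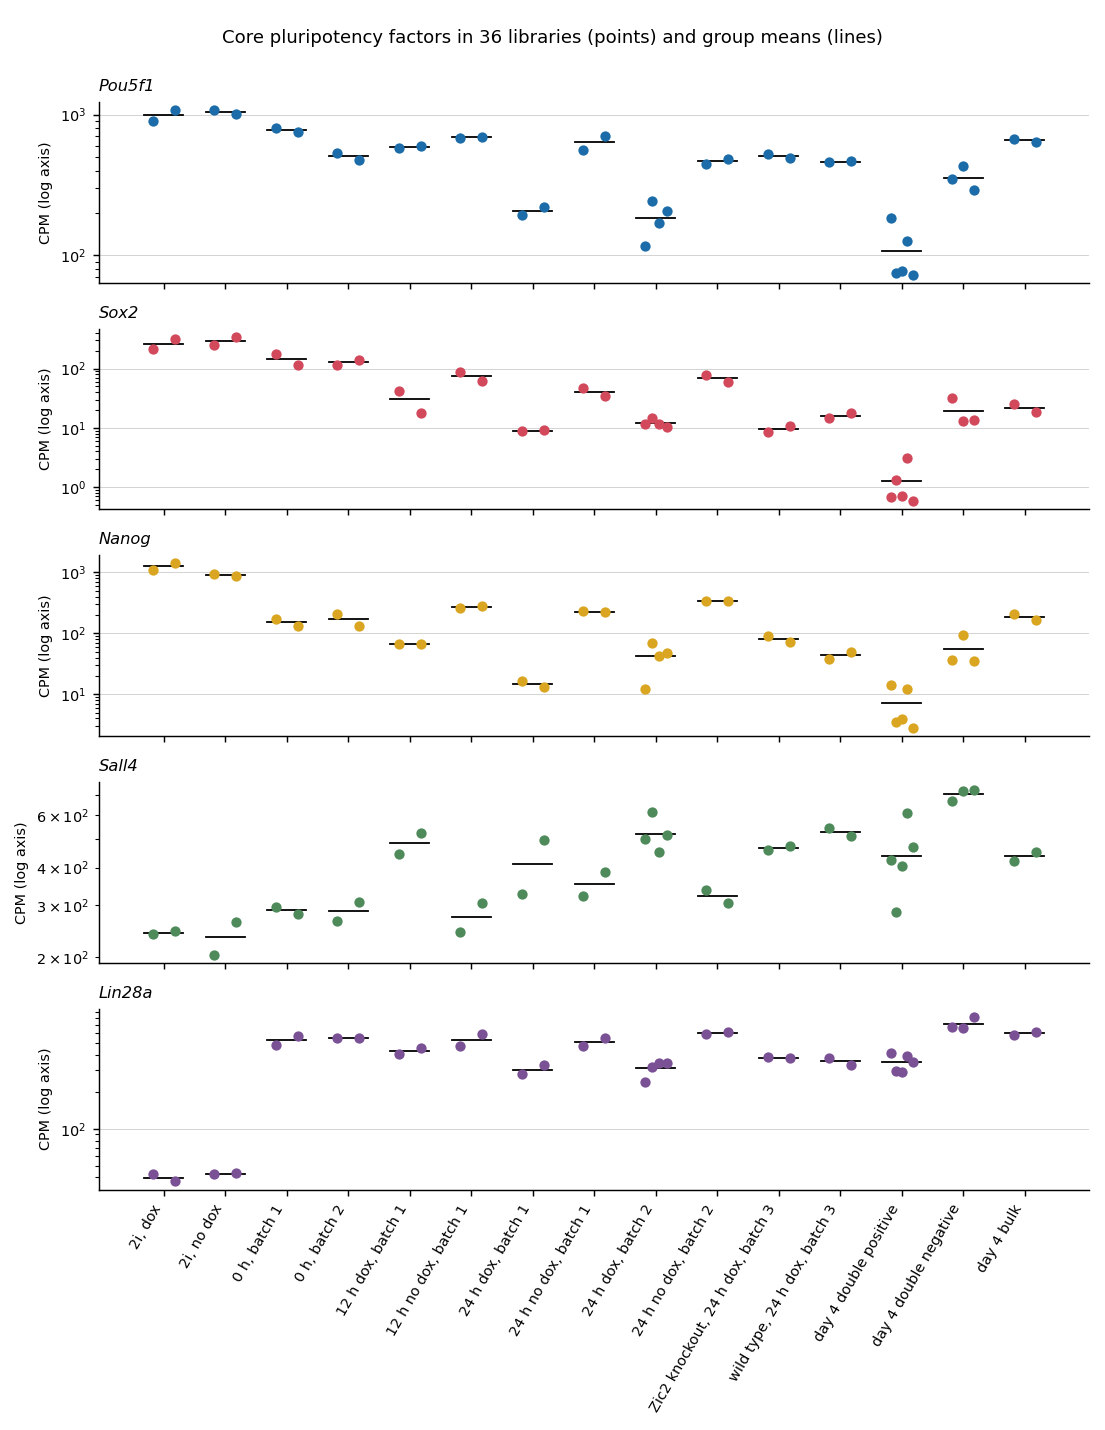
CPM of each member on a log axis (vertical) in the 15 groups (horizontal); each point is a library and each line a group mean. Sox2 reaches its lowest mean of 1.27 CPM in the day 4 double positive sort, and Lin28a stands at 39.8 and 43 CPM in 2i with and without dox, below every other group.

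Neighbours in the order often overlapped. Of the 14 neighbouring pairs of group means, the libraries overlapped in 8 pairs for Pou5f1, 9 for Sox2, 7 for Nanog, 12 for Sall4 and 8 for Lin28a. For Sall4, the 2 pairs that did not overlap were the double negative sort above wild type cells of batch 3, and 24 h without dox in batch 2 above 0 h in batch 1. Over the 15 group means of log2(CPM + 1), Pearson r was 0.85 for Sox2 with Pou5f1, 0.88 for Nanog with Pou5f1 and 0.90 for Nanog with Sox2, given as a description since groups share batches. Sall4 ran against these 3, with r of -0.57, -0.78 and -0.72 for Pou5f1, Sox2 and Nanog. Lin28a had r of -0.32, -0.44 and -0.47 with the same 3 and 0.51 with Sall4.

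To compare levels between genes, counts were also taken per kilobase of exon. On this scale the 5 transcripts summed to a mean of 1184 CPM per kb in 2i with dox and 1068 in 2i without, and to 218 CPM per kb in the double positive sort, against 500 in the double negative sort and 615 in bulk. In 2i without dox, Pou5f1 made up 43.4% ± 1.79 of the sum and Nanog 38.1% ± 2.07 (SD, n = 2), and Lin28a made up 1.01%. At 0 h in batch 1, Pou5f1 held 51.7% and Lin28a 19.9%, with Nanog at 10.1%. In the double positive sort, Lin28a made up 40.7% ± 3.75 and Sall4 36.4% ± 5.77 of the sum (SD, n = 5), against 21.3% for Pou5f1, 1.37% for Nanog and 0.279% for Sox2. Lin28a and Sall4 also held large shares in the double negative sort, at 36.3% and 25.5%. At 24 h with dox these shares were 30.1% and 29% in batch 1 and 28.2% and 34.3% in batch 2. Per kb both were lower in the double positive than in the double negative sort, at 87.4 against 180 for Lin28a and 79.1 against 127 for Sall4. The order of the members within a group thus changed between conditions.

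**Figure D2:**
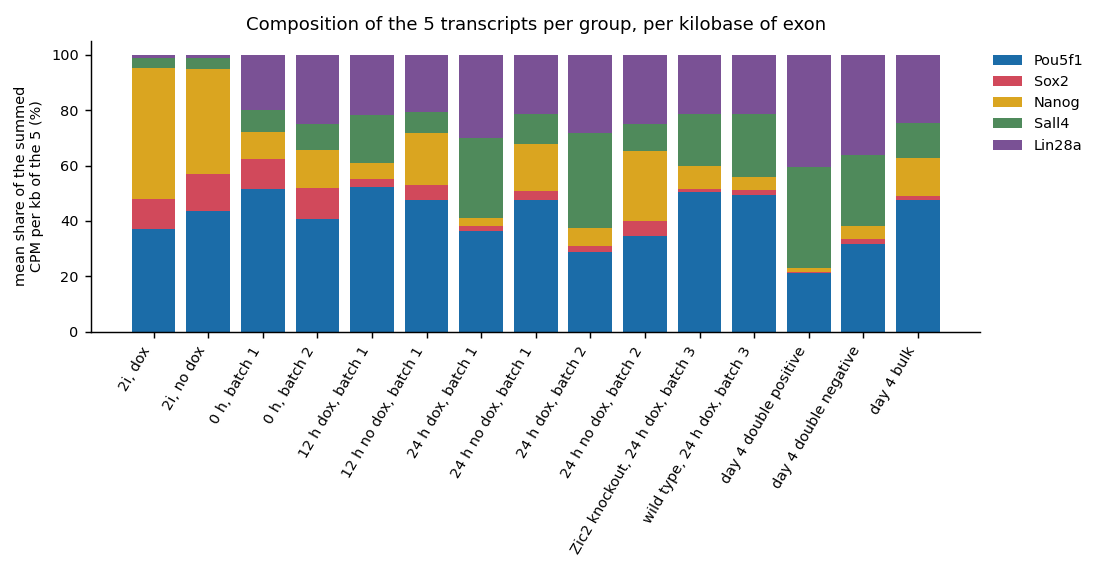
Mean share (vertical, percent) of each member in the summed CPM per kilobase of exon of the 5, per group (horizontal); bars are means over the libraries of a group. Pou5f1 and Nanog fill most of the bar in 2i. Sall4 and Lin28a fill most of it in both day 4 sorts and at 24 h with dox in batches 1 and 2.

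After 24 h of dox, Pou5f1, Sox2, Nanog and Lin28a were lower and Sall4 was higher than without dox. Nanog had 16.5 and 13.1 CPM in batch 1 and 12.3, 68.2, 43.2 and 46.8 CPM in batch 2 with dox, against 229 and 222 CPM in batch 1 and 340 and 343 CPM in batch 2 without dox. Every library with dox lay below every library without it. Nanog fell by 3.29 on the log2 scale (SE 0.33), 9.78-fold lower, with an adjusted p of 9.73e-07 in edgeR's quasi-likelihood test with Benjamini-Hochberg adjustment. Adjusted p-values below come from that test over all genes tested, and a gene is called where its adjusted p is below 0.05.

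Sox2 had 8.81 and 9.09 CPM in batch 1 and 11.4, 14.5, 11.6 and 10.3 CPM in batch 2 with dox, against 47 and 34.7 CPM and 76.7 and 59.6 CPM in batches 1 and 2 without dox. The groups did not overlap, and Sox2 fell by 2.34 on the log2 scale (SE 0.22, edgeR adjusted p = 5.47e-07). Pou5f1 had 193 and 220 CPM in batch 1 and 117, 242, 169 and 208 CPM in batch 2 with dox, against 562 and 707 CPM and 447 and 482 CPM without dox. It fell by 1.42 (log2, SE 0.16, edgeR adjusted p = 2.65e-06), 2.68-fold lower, again with no overlap. The mean of Pou5f1 was 191 ± 44.1 CPM with dox (SD, n = 6) and 549 ± 115 CPM without dox (SD, n = 4).

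Lin28a averaged 309 ± 41.9 CPM with dox (n = 6) and 556 ± 63.8 CPM without dox (n = 4, SD), 1.8-fold lower in the fit (log2 change -0.85, SE 0.12, edgeR adjusted p = 2.62e-05). Sall4 averaged 484 ± 94.1 CPM with dox and 337 ± 34.6 CPM without dox, and the groups overlapped, with 327 CPM in 1 library with dox against 305 to 385 CPM without dox. Sall4 rose by 0.52 (log2, SE 0.15, edgeR adjusted p = 0.0154). All 5 members were called, beside 30.0% of all genes tested, 15.4% higher and 14.6% lower. The Sall4 call was lost without any of 4 libraries: adjusted p was 0.0617 without batch 1 24 h dox replicate 2, 0.0513 without batch 1 no dox replicate 1, and 0.0594 and 0.0778 without batch 2 no dox replicates 1 and 2. Within batches, the log2 change of Sall4 was 0.22 in batch 1 alone, not called, and 0.71 in batch 2 alone, while Pou5f1, Sox2, Nanog and Lin28a were called lower in each batch alone. The difference of the dox effects in batch 2 and batch 1 was called for none of the 5 members (0.629% of all genes), at log2 differences of -0.29 to 0.95. In bulk RNA, fewer cells of a type and less RNA per cell cannot be told apart.

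**Figure D3:**
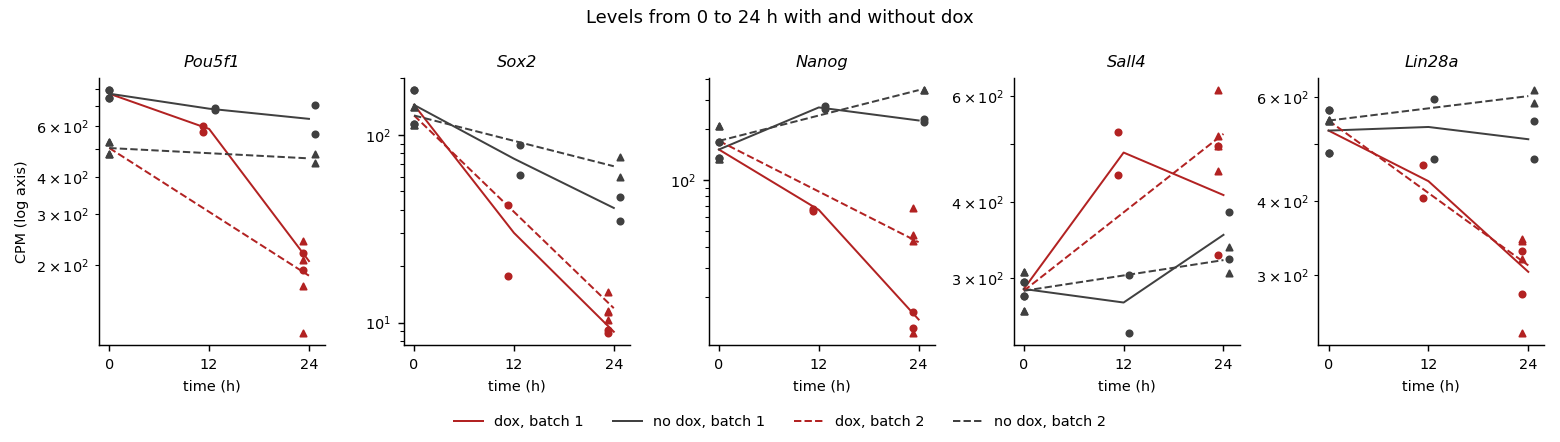
CPM (log axis) of each member at 0, 12 and 24 h; circles and solid lines are batch 1, triangles and dashed lines batch 2, red is dox and dark grey no dox, and lines join group means, both starting from the same 0 h libraries of a batch. At 12 h the Nanog libraries stand at 67 and 65.7 CPM with dox and 263 and 276 CPM without, and at 24 h Pou5f1 with dox lies between 117 and 242 CPM, below all libraries without dox.

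At 12 h, sampled in batch 1 only, Nanog had 67 and 65.7 CPM with dox against 263 and 276 CPM without dox, a log2 change of -2.0 (SE 0.50, edgeR adjusted p = 0.0251). Sox2 had 42.4 and 17.8 CPM with dox against 88.4 and 61.1 CPM without dox (log2 change -1.29, SE 0.34, edgeR adjusted p = 0.0312). Sall4 had 445 and 523 CPM with dox against a mean of 273 ± 42.3 CPM without dox (SD, n = 2; log2 change 0.85, SE 0.23, edgeR adjusted p = 0.0372). Pou5f1, with 574 and 598 CPM with dox against 682 and 693 CPM without dox, and Lin28a, with 405 and 460 CPM against 472 and 597 CPM, were not called (log2 changes -0.21 and -0.29, edgeR adjusted p = 0.98 and 0.63). Thus 1 member was called higher and 2 lower, beside 5.66% of all genes tested, 3.29% higher and 2.37% lower. With 2 libraries a group these calls depended on single libraries: leaving out any 1 of the 4 lost Nanog (edgeR adjusted p 0.0962 to 0.206) and Sall4 (0.0589 to 0.392), and Sox2 was lost without dox replicate 2 (0.379) and without no dox replicates 1 and 2 (0.265 and 0.0576). The 24 h effect of dox minus its 12 h effect was called for no member, beside 0.522% of genes, with a log2 difference of -1.22 for Pou5f1 (SE 0.29, edgeR adjusted p = 0.0672). That Pou5f1 difference was called without batch 2 24 h dox replicate 1 (edgeR adjusted p = 0.0414) and without replicate 2 (0.0174).

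Between 12 and 24 h with dox, Pou5f1 fell by 1.37 on the log2 scale (SE 0.21), Sox2 by 1.71 (SE 0.30), Nanog by 1.65 (SE 0.44) and Lin28a by 0.57 (SE 0.16), with edgeR adjusted p of 0.000593, 0.00128, 0.0167 and 0.0206. Sall4 was not called (log2 change -0.07, edgeR adjusted p = 0.866). These 4 lower calls stood beside 9.05% of genes lower and 17.4% called in all. They depended on single libraries: the Nanog call was lost without either 12 h or either 24 h dox library of batch 1 (edgeR adjusted p 0.0573 to 0.12), the Lin28a call without batch 1 12 h dox replicates 1 and 2 and 24 h dox replicate 1 (0.0674, 0.17 and 0.0524) and the Sox2 call without 12 h dox replicate 1 (0.0964).

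Without dox, Sox2 alone of the members was called over 24 h. Sox2 had 47 and 34.7 CPM in batch 1 and 76.7 and 59.6 CPM in batch 2 at 24 h, against 174 and 115 CPM in batch 1 and 113 and 141 CPM in batch 2 at 0 h, a log2 change of -1.44 (SE 0.24, edgeR adjusted p = 0.000476). Nanog had 229, 222, 340 and 343 CPM at 24 h against 169, 134, 208 and 133 CPM at 0 h, with no overlap between the groups, yet its change of 0.68 (SE 0.35) was not called (edgeR adjusted p = 0.158). Within batch 1 alone Nanog was called higher (log2 change 0.50, edgeR adjusted p = 0.0322), and in batch 2 alone it was not (0.95, 0.327). The 1 member called stood beside 25.1% of all genes, 11.7% lower, in numbers 2503 higher and 2172 lower, and 3029 higher and 1680 lower with scaling to library totals. None of the 5 was called from 0 to 12 h, or from 12 to 24 h, without dox, where 0.317% and 0.264% of genes were called. In the same cells the 17 genes of the nascent mesoderm list were all called higher over 24 h, with a median log2 change of 4.47 against 0.01 for all genes.

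In 2i, dox left the members without a call, although Mesp1 stood at 85.4 and 119 CPM with dox against 1.09 and 0.613 CPM without. Mesp1 itself was not called here (log2 change 6.90, SE 0.36, edgeR adjusted p = 0.146), so the lack of a call does not show a lack of change. Nanog had 1115 and 1405 CPM with dox against 951 and 876 CPM without dox, higher in both, with a log2 change of 0.42 (SE 0.17, edgeR adjusted p = 1). Pou5f1 had 904 and 1074 CPM with dox against 1076 and 1009 CPM without dox, and Sox2 211 and 318 CPM against 249 and 345 CPM, both overlapping. No gene of 18534 was called by edgeR in this comparison (0% called), and DESeq2 called 47. By edgeR 385 genes had an unadjusted p below 0.05, where 927 are expected if no gene changes. Whether dox acted differently in 2i than in differentiating cells at 24 h was tested directly. This difference was called for Nanog (log2 difference 3.69, SE 0.59, edgeR adjusted p = 0.000726), Sox2 (2.11, SE 0.41, 0.00296) and Pou5f1 (1.28, SE 0.28, 0.00731), beside 7.04% of all genes, 3.77% in this direction. Sall4 (-0.53, SE 0.26, edgeR adjusted p = 0.306) and Lin28a (0.68, SE 0.21, 0.0623) were not called. Lin28a was called without batch 1 24 h dox replicate 2 (edgeR adjusted p = 0.0394) and without batch 1 24 h no dox replicate 1 (0.0402). The 2i libraries have no batch label, so differences of batch, of medium and of state of differentiation cannot be told apart.

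Of the 5 members, Lin28a showed the widest gap between 2i without dox and 0 h. It had 42.5 and 37.2 CPM in 2i with dox and 42.7 and 43.3 CPM in 2i without, against 482 to 572 CPM at 0 h, so that 2i without dox lay 12.3-fold below 0 h of batch 1 and 12.7-fold below 0 h of batch 2. Its paralog Lin28b, which acts on let-7 as well, had 0.987 and 6.72 CPM in 2i with dox and 1.46 and 6.69 CPM in 2i without dox, against 160 and 151 CPM at 0 h in batch 1 and 68.7 to 108 CPM at 0 h in batch 2. Lin28b in 2i without dox thus lay 38.1-fold below 0 h of batch 1 and 21.7-fold below 0 h of batch 2. Nanog ran opposite, with 951 and 876 CPM in 2i without dox against 133 to 208 CPM at 0 h. These are levels across batches and carry no test.

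**Figure D4:**
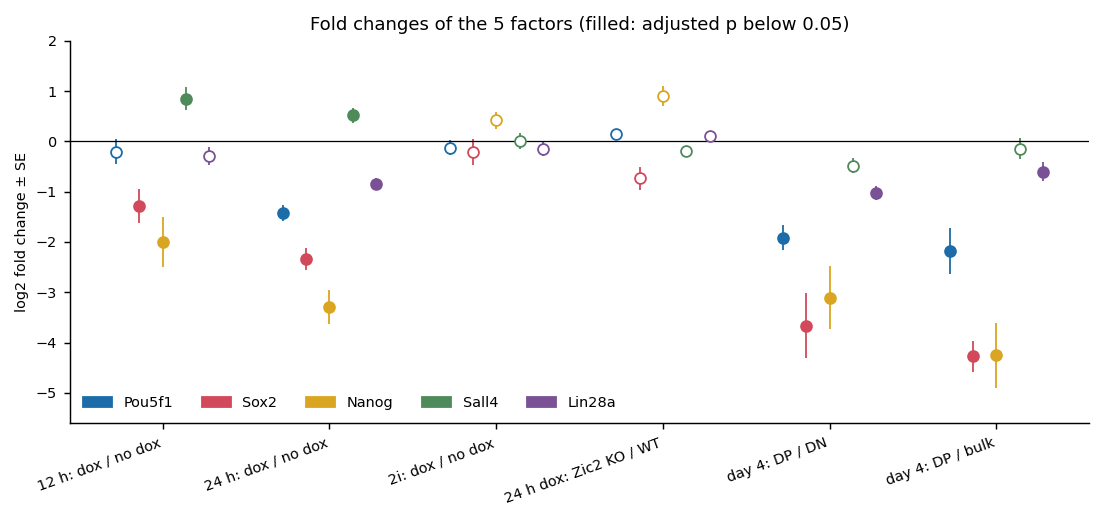
Log2 fold change (vertical, with standard error bars) of each member in 6 comparisons (horizontal, first-named group over the second; KO is the Zic2 knockout, WT wild type, DP double positive and DN double negative); filled points have an adjusted p below 0.05. Nanog falls by 3.29 with dox at 24 h and is not called in 2i, where edgeR called no gene. Sall4 is the one member with a filled point above 0.

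Cells labelled Zic2 knockout were set against wild-type cells of batch 3, both at 24 h with dox. Zic2, a zinc finger factor of the epiblast, still had 73 and 56.4 CPM in knockout cells against 108 and 74.7 CPM in wild-type cells. The deleted part is not given in the sources used here, so these counts do not check the label. Mesp1 differed by -0.93 on the log2 scale between knockout and wild-type cells (SE 0.35, not called). The part of Mesp1 in the values of the members was not tested. Nanog had 91.3 and 72.2 CPM in knockout cells against 38.2 and 49.5 CPM in wild-type cells, with no overlap (log2 difference 0.90, SE 0.19, unadjusted p = 0.00412, edgeR adjusted p = 1). Sox2 had 8.52 and 10.8 CPM in knockout cells against 14.5 and 17.8 CPM in wild-type cells, with no overlap (log2 difference -0.73, SE 0.23, edgeR adjusted p = 1). Pou5f1 had 526 and 488 CPM in knockout cells against 458 and 466 CPM in wild-type cells, also with no overlap (log2 difference 0.14). Sall4 had 458 and 472 CPM in knockout cells against 512 and 545 CPM in wild-type cells, again with no overlap (-0.18). Lin28a had 375 and 386 CPM against 331 and 380 CPM and overlapped (0.10). The share of all genes without overlap was not counted, and with 2 libraries a side it can be large. No gene of 16518 was called by edgeR, 0%, and DESeq2 called 5. By edgeR 390 genes had an unadjusted p below 0.05, where 826 are expected if no gene changes. Pou5f1 in wild-type cells with dox averaged 462 CPM in batch 3 against 206 CPM in batch 1 and 184 CPM in batch 2, a gap between batches within 1 labelled condition that carries no test.

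On day 4 the double positive sort was lower than the double negative sort in 4 members, in replicates 3 to 5 of each. Sox2 had 0.712, 3.07 and 0.577 CPM (9, 41 and 7 counts) in double positive cells against 31.9, 12.9 and 13.4 CPM in double negative cells. The groups did not overlap (log2 difference -3.66, SE 0.65, edgeR adjusted p = 0.00638). Nanog had 3.95, 12 and 2.8 CPM in double positive cells against 36.9, 92.8 and 35.4 CPM in double negative cells (log2 difference -3.10, SE 0.63, edgeR adjusted p = 0.0109). Pou5f1 had 77.3, 127 and 73.1 CPM against 346, 431 and 289 CPM (log2 difference -1.91, SE 0.25, edgeR adjusted p = 0.00193). Lin28a had 292, 393 and 352 CPM against 683, 660 and 820 CPM (log2 difference -1.03, SE 0.14, edgeR adjusted p = 0.00173).

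Sall4 had 405, 608 and 469 CPM in double positive cells against 667, 722 and 728 CPM in double negative cells, with no overlap, yet its difference of -0.48 was not called (SE 0.15, edgeR adjusted p = 0.0546). The 4 calls stood beside 25.6% of genes called, 16.2% lower. Libraries of the same number deviated together, and with the replicate number as a block Sall4 was called lower (log2 difference -0.50, SE 0.09, edgeR adjusted p = 0.00545) and 7254 genes were called in place of 4318. Sall4 was also called lower with DESeq2 (adjusted p = 0.0256) and, by edgeR, with library totals (adjusted p = 0.0332), with no filter on low counts (0.0379), with all 5 double positive libraries (0.0457) and without double positive replicate 4 (0.0041). It was not called with upper quartile scaling or without any other single library. Nanog was lost with no filter on low counts (edgeR adjusted p = 0.0857). The library of double positive replicate 4, with 12 CPM of Nanog, 3.07 of Sox2 and 127 of Pou5f1, was the highest of the 3 in each.

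Against unsorted bulk cells, with replicates 1 and 2 of each, the double positive sort was lower in the same 4 members. Sorting and whatever the ND tag of the bulk titles marks cannot be told apart here. Depth differed as well, with 51940589 and 50260410 gene reads in bulk against 17644613 and 19874949 in the double positive sort. Reads aligned to several places numbered 4539716 and 4456046 in bulk against 3731111 and 4171903, a larger part beside the double positive gene totals. The part of these differences in the results was not tested. Nanog had 14.3 and 3.47 CPM in double positive cells against 209 and 166 CPM in bulk cells (log2 difference -4.25, SE 0.65, edgeR adjusted p = 0.00715), and Sox2 0.68 and 1.31 CPM against 25.2 and 18.4 CPM (-4.27, SE 0.31, 0.000259). Pou5f1 had 183 and 74.9 CPM against 668 and 643 CPM (log2 difference -2.18, edgeR adjusted p = 0.018), Lin28a 415 and 295 CPM against 581 and 622 CPM (-0.60, 0.042), and Sall4 424 and 283 CPM against 421 and 452 CPM (-0.14, not called). The sign of the Sall4 difference turned with the double positive libraries used, at 0.13 without replicate 2 and 0.30 with replicates 3 to 5 in place of 1 and 2. The 4 calls stood beside 51.7% of genes called, 28.8% lower, which were 4437 higher and 5573 lower genes, against 2882 and 6795 with scaling to library totals. Leaving out 1 of the 2 bulk libraries, whichever it was, kept the call of Sox2 alone: Pou5f1 had an edgeR adjusted p of 0.28 and 0.268, Nanog 0.227 and 0.202 and Lin28a 0.106 and 0.158 without bulk replicates 1 and 2. Sall4 was called without double positive replicate 1 (log2 difference -0.49, edgeR adjusted p = 6.78e-05). With no filter on low counts the calls of Pou5f1, Nanog and Lin28a were lost (edgeR adjusted p = 0.128, 0.0804 and 0.0553).

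Of the 12 listed paralogs of the members, 11 were tested at 24 h of dox, and 7 were called lower and none higher, with a median log2 change of -0.90 against 0.02 for all genes, of which 14.6% were called lower. Pou3f1, a POU factor of the primed epiblast, changed by -3.01 (SE 0.15, edgeR adjusted p = 1e-09) and Sox3, a close relative of Sox2, by -2.05 (SE 0.30, 5.35e-05). Lin28b changed by -0.49 (SE 0.14, edgeR adjusted p = 0.015), and Sall2 by -0.90, so that Sall4 was called in the direction opposite to Sall1 (-0.53) and Sall2. In the double positive sort against the double negative sort, Sall3 was higher (1.14, SE 0.13, edgeR adjusted p = 0.000954), Sall1 lower (-1.5, 0.00412) and Lin28b not called (0.05), while Sox3 was lower (-4.71, SE 0.48, 0.0006).

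Of 24 targets and partners of Oct4 and Sox2, 15 were called lower and 3 higher at 24 h of dox (median -0.80 against 0.02 for all genes, of which 14.6% were lower and 15.4% higher), among them Foxd3 at -3.31, L1td1 at -3.14 and Epcam, an epithelial adhesion protein, at -2.12. In the double positive sort against the double negative sort, 11 of 23 were called lower and 1 higher (median -0.48 against 0.01 for all genes, of which 16.2% were lower and 25.6% called in all). Of 15 naive genes, 6 were called lower and 3 higher at 24 h of dox, Tfcp2l1 at -1.93 and Klf5 at -1.5 among the lower and Gbx2 at 2.21 among the higher. Of 12 primed epiblast genes, 7 were lower and 2 higher, Otx2 at -1.68 and Dnmt3b, a DNA methyltransferase, at -2.03 among the lower and Lef1 at 2.24 among the higher.

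Of 12 genes of the NuRD complex, the partners of Sall4, 2 were called lower and none higher at 24 h of dox (median -0.11 against 0.02), a share near the 14.6% of all genes called lower. In the double positive sort against the double negative sort 1 was called in each direction, beside 25.6% of all genes. Of 20 genes of the Lin28 and let-7 pathway, 5 were called higher and 2 lower at 24 h of dox (median 0.02, as over all genes, of which 15.4% were higher and 14.6% lower), and Hmga2, a let-7 target, was higher by 1.74 (SE 0.20, edgeR adjusted p = 3.28e-06). In the double positive sort against the double negative sort, Hmga2 was higher by 2.64 (SE 0.10, edgeR adjusted p = 2.82e-05), Mycn by 1.40 and Myc by 1.30, and 3 of 20 were called in all, beside 25.6% of all genes.

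Markers of other cells moved with these comparisons, and their part in the results was not tested. At 24 h of dox, 5 of 17 nascent mesoderm genes were called higher and 10 lower, beside 15.4% higher and 14.6% lower of all genes. Mesp1, which dox switches on, is among the 5 higher genes, and its reads are part of the summed level of the list. The summed level was 1473 to 1586 CPM with dox against 2295 to 2437 CPM without dox in batch 1, and 1245 to 1636 CPM with dox against 1129 to 1460 CPM without dox in batch 2, where the groups overlapped. The difference of the dox effects in batch 2 and batch 1 was called for 6 of the 17, all higher (median 2.61 against 0.04 for all genes, of which 0.629% were called). Pdgfra was higher by 4.13 and Foxa2, an endoderm factor of that list, changed by -5.50. Of 9 germ cell genes 8 were tested, and 3 were lower, Kit at -2.82 among them. The summed level of the germ cell list was 24.7 to 34.4 CPM with dox, against 86.3 to 135 CPM without dox, and on day 4 it was 26.3 to 44.3 CPM in double positive cells against 207 to 357 CPM in double negative cells. Of 11 visceral endoderm genes 1 was called higher at 24 h of dox, with summed levels of 502 to 817 CPM with dox against 837 to 840 CPM without in batch 1, and of 235 to 401 CPM against 61.8 to 99.2 CPM in batch 2. Of 8 neuroectoderm genes tested, 5 were higher and 3 lower. Of 5 tested feeder fibroblast genes 3 were higher and 1 lower, with summed levels of 67.2 to 98.6 CPM with dox against 19.4 to 28.8 CPM without dox.

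The genes whose 15 group means ran most like each member were taken from 4790 genes with a mean of at least 5 CPM and a range of at least 2 on the log2 scale. For Pou5f1 they were Carmil2, Bex1, Itga3, Gls2 and N4bp3 (Pearson r 0.956 to 0.910). For Sox2 they were Syngr1, Mcf2, Tst, Mpv17l and Pipox (0.977 to 0.964), and for Nanog Dmtn, Zfp185, Itga3, Cpt1a and Tst (0.962 to 0.938). For Lin28a they were Rnf145, Plxnb1, Igsf1, Stk26 and Otx2 (0.986 to 0.974). For Sall4, among 4791 genes, they were Nfkb1, Tcf7l2, Col7a1, Dusp18 and Mogat2 (0.929 to 0.912). Itga3 was on the lists of Pou5f1 and Nanog, and Tst on those of Sox2 and Nanog. These r values describe 15 group means that share batches, and were picked as the highest of the genes compared.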

How the data were processed

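Processed files of 36 mouse libraries were used. Per the submitters' processing notes, the tools were Trimmomatic, STAR, HTSeq and DESeq2 with the mm10 build, and the deposited counts are whole reads per Ensembl gene, not normalized; of 49671 identifiers 49326 matched a symbol of the GENCODE annotation. Rows for reads in no gene or several genes (7.76% to 13.9%) were left out. Counts were tested with edgeR 4.0.16 (R 4.3.3): filterByExpr, TMM, robust quasi-likelihood test, 2-sided, Benjamini-Hochberg adjustment, called below 0.05. Comparisons within batches 1 and 2 used their 18 libraries with batch as a term. The difference of the dox effects between these batches used the same 18 with a group for each batch and condition and no batch term. The difference between 2i and 24 h used the 18 and the 2i libraries, with the batch term and 2i with and without dox as groups of their own. Other comparisons used the compared groups alone. Standard errors are the log2 change over the root of F. The procedure was tested on simulated data. DESeq2 1.42.0, other scalings, no filter, single batches, a replicate block and leaving out each library were alternatives. Where a group kept 1 library, it was assumed to vary like the others.

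In the day 4 sorts, same-numbered libraries deviated together from their group means (r 0.42, 0.55 and 0.51 for numbers 3, 4 and 5, each the highest for its library). The labels do not say what the numbers mark. The reported test of these sorts did not pair the libraries. A fit with the number as a block was an alternative, and there all 5 members were called lower.

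Named genes are the 5 members, their paralogs, at most 4 called genes per list with a log2 change of at least 1, and the 5 genes most like each member. The members and lists were chosen with earlier results of these data known. The gene totals set the counting error alone, and the standard errors also take in the spread between libraries, estimated from few libraries a group.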

Additional observations from a re-analysis of the deposited data

Results flagged for a closer look

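The effect of dox on Nanog, Sox2 and Pou5f1 differed between 2i and differentiating cells at 24 h, by a test of the difference itself. The log2 difference was 3.69 for Nanog, 2.11 for Sox2 and 1.28 for Pou5f1, beside 7.04% of all genes called, 3.77% in this direction. In 2i the log2 changes with dox were 0.42, -0.21 and -0.12, and at 24 h they were -3.29, -2.34 and -1.42. Medium, state of differentiation and batch cannot be told apart here. No library of the groups of 4 or 5 stood apart for a member by Dixon's test, and smaller groups were not tested. Sox2 in the double positive sort came close, with replicate 4 at 3.07 CPM and a gap over range of 0.706 against a critical value of 0.71.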

How the results depend on the processing

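Of the changes of the members under alternatives other than leaving out a library, 344 kept their direction and side of the threshold, 22 came past it, 10 fell short of it and 9 changed sign; without single libraries the numbers were 440, 6, 29 and 15. Each change of sign was of a change that was not called. For Lin28a without dox, 12 h against 0 h was 0.045 on the log2 scale with library totals and 0.0102 with no filter (-0.01 as reported), 24 h against 0 h was 0.0853 in batch 2 alone, 0.0455 with library totals and 0.0015 with no filter (-0.02), and 24 h against 12 h was 0.0005 with library totals and 0.018 with the block (-0.0097). Sall4 was 0.3036 against bulk with double positive replicates 3 to 5 (-0.14) and -0.0014 in 2i with no filter (0.0064). Without single libraries these 5 ran over -0.2318 to 0.2062, -0.0636 to 0.0778, -0.2024 to 0.2132, -0.4923 to 0.1337 and -0.1444 to 0.1658. Lin28a for the batch difference ran over -0.3754 to 0.0174, Sall4 over -0.2957 to 0.1208 for 12 h against 0 h without dox and -0.2397 to 0.1239 for 24 h against 12 h with dox, and Sox2 in 2i over -0.5465 to 0.0571. Library totals moved the members' differences against bulk by a mean of -0.16. The cause of these changes was not tested. DESeq2 called 245 genes for 12 h against 0 h without dox (59 by edgeR), 319 for 24 h against 12 h without dox (49), 5 for the Zic2 knockout (0), 260 for the batch difference (117), 488 for the difference of the dox effects at 24 h and 12 h (97) and 47 in 2i (0). With no filter on low counts these were 605, 801, 0, 514, 873 and 18, and 1628 genes were called for dox at 12 h (1052). Batch 1 alone gave 573 genes for 24 h against 12 h without dox, 638 for the difference of 24 h and 12 h and 1590 for dox at 12 h. Batch 2 alone gave 658 genes for 24 h against 0 h without dox (4675) and 3118 for dox at 24 h (5584), and no batch term gave 2089 for 24 h against 0 h.

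The replicate block changed the count to 7254 genes for the day 4 sorts (4318), 94 for 24 h against 12 h without dox, 309 for the difference of 24 h and 12 h and 633 in 2i. Outside the day 4 sorts the labels likewise give only a number, with r of same-numbered deviations of 0.74 in 2i, 0.34 in batch 3, -0.16 for double positive and bulk, 0.07 to 0.78 in batch 1 and -0.08 and -0.03 in batch 2. In batch 1 r was 0.64 to 0.78 among the 12 and 24 h groups. Same-numbered libraries of these groups also shared a depth, with 38246754 to 46525179 gene reads in replicate 1 and 12325443 to 22224461 in replicate 2. The part of depth in these r values was not tested. Outside the day 4 sorts the block lost Nanog at 12 h of dox (edgeR adjusted p = 0.065) and Pou5f1 against bulk (0.0567). It called Pou5f1 for the difference of 24 h and 12 h (0.0379) and changed no other call of a member.

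Members called were 2 in place of 1 for 24 h against 0 h without dox in batch 1 alone and with no filter. With no filter they were 2 for 12 h against 0 h, 1 for 24 h against 12 h without dox and 1 for the batch difference, each in place of 0, and 1 in place of 4 against bulk. For the difference of 24 h and 12 h they were 1 with DESeq2, 1 with the block, 2 in batch 1 alone and 3 with no filter, in place of 0. At 12 h of dox batch 1 alone called 1 in place of 3. Lin28a in the difference of 2i and 24 h was called with DESeq2 (adjusted p = 0.0417), and by edgeR with library totals (0.0218), upper quartile scaling (0.0496) and no filter (0.0134).

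Leaving out single libraries gave 5 to 69 genes for 12 h against 0 h, 3114 to 4445 for 24 h against 0 h and 0 to 34 for 24 h against 12 h, all without dox, 551 to 3536 for 24 h against 12 h with dox, 423 to 693 for dox at 12 h and 4451 to 5731 at 24 h. It gave 22 to 237 for the batch difference, 1 to 249 for the difference of 24 h and 12 h, 0 to 2 in 2i, 976 to 1629 for 2i against 24 h, 0 to 9 for the Zic2 knockout, 2910 to 4627 for the double positive against the double negative sort and 4903 to 12394 against bulk. Members called ranged over 1 to 4 for 24 h against 12 h with dox, 0 to 1 for the difference of 24 h and 12 h, 3 to 4 for 2i against 24 h, 4 to 5 for dox at 24 h, 0 to 1 at 12 h, 4 to 5 for the double positive against the double negative sort and 1 to 5 against bulk. Depth limits Sox2 in the double positive sort most, where a library held 7 to 41 counts.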
